A study of Mus musculus with 3 samples.

Results

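Cell cycle genes were followed by phase through the cells of mouse patellar tendon at 2 ages. The 34 genes were taken by symbol from the 32288 features of the count tables: 10 S-phase genes (Pcna, Mcm2, Mcm3, Mcm4, Mcm5, Mcm6, Mcm7, Tyms, Rrm1 and Rrm2), 21 mitotic genes (Mki67, Top2a, Ccna2, Ccnb1, Ccnb2, Cdk1, Birc5, Bub1, Bub1b, Cenpa, Cenpe, Cenpf, Aurka, Aurkb, Plk1, Ube2c, Cdc20, Tpx2, Kif11, Nusap1 and Prc1) and 3 that belong to neither list (Ccnd1, Hmgb2 and Stmn1). All 34 were found, 1 feature each. The tendons came from wild-type (WT) mice aged 2 weeks (1 library) or 20 weeks (2 libraries, replicates 1 and 2), with no transgene or treatment named for either age. The tissue was digested with type I collagenase, cells that were neither hematopoietic nor endothelial were sorted by flow cytometry, and droplet-based single-cell RNA-seq counted unique molecular identifiers (UMIs) per gene and cell barcode. The labels do not give the number of animals per library, so any p-value measures the spread between these libraries only.

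The cell cycle runs through phases in which different proteins are needed. In S phase the genome is copied: the MCM proteins form the helicase that opens the DNA, Pcna is the clamp that holds the polymerase, and Tyms, Rrm1 and Rrm2 supply nucleotides. In G2 and M phase the cyclins Ccna2, Ccnb1 and Ccnb2 activate the kinase Cdk1, the spindle is built and checked, and the anaphase-promoting complex with Cdc20 and the ubiquitin-conjugating enzyme Ube2c ends mitosis. S-phase genes are largely under E2F factors and also serve DNA repair. Mitotic genes are transcribed late in the cycle through CHR promoter elements, bound by the DREAM and B-Myb complexes, together with CCAAT elements. Tendon grows after birth by division of its cells, and adult tendon turns its cells over slowly.

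The libraries differed in size. After filters and doublet removal, 4767 cells were used from the library of 2-week tendon, 606 from 20-week replicate 1 and 1007 from replicate 2, with medians of 6513, 2822 and 5134 UMIs per cell and totals of 32793363, 1785039 and 5550816 UMIs. The libraries shared 0 to 3 cell barcodes in each pair. Tenocyte markers, 8 genes summed, stood at 4723, 12274 and 3239 CPM (UMIs of a gene scaled to a common library total), so tendon cells were present in each library. The gate was not complete in replicate 2: 66 of its cells were B-lineage cells with Cd79a, the signal chain of the B-cell receptor, and they are described apart from all others. The summed B-lineage markers, 10 genes, were at 10.8, 4.48 and 723 CPM, and the 8 endothelial markers at 7.84, 5.04 and 25.8 CPM. A further 3 barcodes of replicate 2, 3 of the 2-week library and 0 of replicate 1 carried at least 1 of the erythroid genes Alas2, Klf1 and Slc4a1 together with at least 1 of the haemoglobin genes Hba-a1, Hba-a2, Hbb-bs and Hbb-bt. The results that rest on these erythroid-marker barcodes are given with and without them, and the 3 at 2 weeks held 1 of the 9116 mitotic UMIs of that library. The rule that defines them was chosen after the data had been seen.

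Most mitotic UMIs of 20-week replicate 2 lay in 1 barcode. Without B-lineage cells the 21 mitotic genes had 9116 UMIs in the 2-week library, 15 in replicate 1 and 771 in replicate 2. Of the 771, 668 (86.6%) came from a single barcode of 117175 UMIs and 7222 genes. That barcode also carried 24 UMIs of the erythroid factor Klf1 and 34 of the beta-globin gene Hbb-bs. It had 0 UMIs of the erythroid genes Alas2 and Slc4a1 and of the leukocyte gene Ptprc. The 3 erythroid-marker barcodes of the 2-week library, of 5632 to 7521 UMIs, carried more Hbb-bs, 158 to 1635 UMIs each. The 3 erythroid-marker barcodes of replicate 2 together held 691 of the 771 mitotic UMIs, and the same barcodes held 195 of the 959 S-phase UMIs. They supplied 47 of 47 UMIs of Birc5 (survivin, of the chromosomal passenger complex), 75 of 76 of Ube2c, 96 of 100 of the proliferation antigen Mki67 and 76 of 79 of topoisomerase Top2a. Their share of a mitotic gene's UMIs ran from 66.7% (Bub1b, 6 of 9) to 100%. Among S-phase genes it ran from 5.25% (Pcna, 16 of 305) to 78.6% (Mcm2, 11 of 14), and for the G1 cyclin Ccnd1 it was 0 of 76 UMIs. The largest barcode was not called a doublet, and whether it is 1 cell was not tested.

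**Figure D1:**
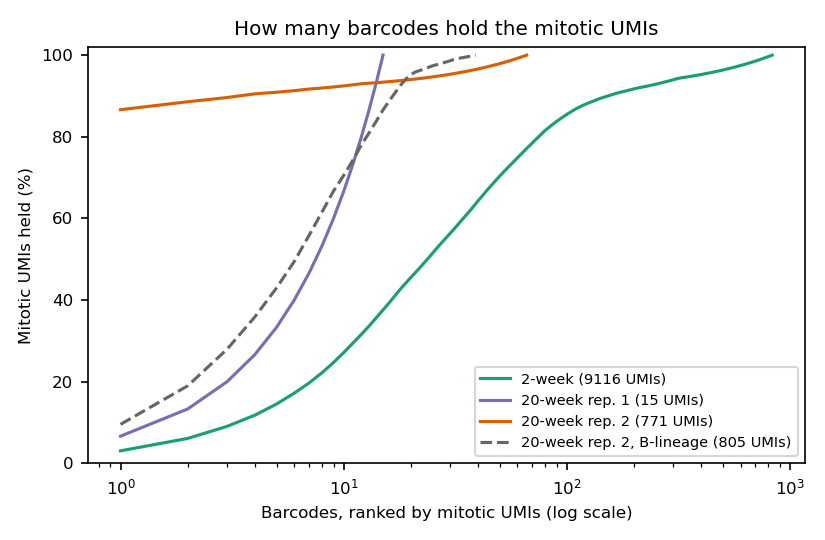
Cumulative percent of the mitotic UMIs of a library (vertical axis) against cell barcodes ranked by their mitotic UMIs (horizontal axis), for the 2-week library (9116 UMIs), 20-week replicates 1 and 2 without B-lineage cells (15 and 771 UMIs) and the B-lineage cells (805 UMIs). The curve of replicate 2 starts at 86.6% with its first barcode, while the first barcode of the 2-week library holds 3.07%.

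Mitotic genes were at 278 CPM (95% exact Poisson interval 272 to 284) at 2 weeks, 8.40 CPM (4.70 to 13.9) in 20-week replicate 1 and 149 CPM (139 to 160) in replicate 2, summed over the 21. Without the erythroid-marker barcodes replicate 2 stood at 15.9 CPM (12.6 to 19.7) from 80 UMIs. Both 20-week libraries were then far below the 2-week library, and replicate 1, in which no barcode met the erythroid rule, was the lower of them. The level at 2 weeks was 20.0 times that of the pooled 20-week libraries (95% interval 16.3 to 24.8). In these cells all 21 mitotic genes were lower in each 20-week library, and the median log2 difference was -3.82, with genes at 0 UMIs set at a floor of 3 UMIs over both libraries. With the erythroid-marker barcodes kept, 20 of 21 were lower than at 2 weeks in the pooled libraries, the median was -1.25, and the 2-week level was 2.46 times the 20-week level (2.29 to 2.65). These intervals cover counting error only. In sums over all cells, fewer dividing cells and less RNA per cell cannot be told apart.

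S-phase genes differed much less between the ages. Summed over the 10, they were at 181 CPM (177 to 186) at 2 weeks, 106 CPM (91.8 to 123) in replicate 1 and 186 CPM (174 to 198) in replicate 2, or 151 CPM (141 to 163) without the erythroid-marker barcodes. The 2-week level thus lay above replicate 1 and within the interval of replicate 2 when all its barcodes were kept. Against both 20-week libraries the ratio was 1.10 (1.03 to 1.17) with those barcodes and 1.30 (1.21 to 1.39) without them, against 2.46 and 20.0 for the mitotic genes. Of the 10 genes, 7 were lower in the pooled 20-week libraries in either setting. The median log2 difference was -0.19 with those barcodes and -0.57 without them. Against replicate 2 alone, with all its barcodes kept, 5 of the 10 were lower and the median was 0.037.

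Of the S-phase genes, 4 had 20-week values on both sides of the 2-week value and the other 6 were lower in both 20-week libraries, once the erythroid-marker barcodes were left out. The clamp Pcna (chr2:132249162-132253314, minus strand, mm10) was at 55.2, 26.9 and 57.3 CPM in the 2-week library, replicate 1 and replicate 2 without erythroid-marker barcodes, so the 20-week libraries lay on both sides of the 2-week value and the pooled ratio was 1.12 (0.996 to 1.26). The helicase subunit Mcm6 was at 14.9, 19.1 and 14.1 CPM, and Mcm4 at 15.9, 13.5 and 16.8 CPM. Mcm7 was at 17.6, 14.6 and 24.8 CPM, a pooled ratio of 0.797 (0.665 to 0.959). With all barcodes the pooled ratio was 1.09 for Pcna and 0.673 for Mcm7.

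The nucleotide genes were among those with both 20-week libraries below the 2-week library. Tyms, thymidylate synthase, was at 26.1, 12.3 and 6.74 CPM in the same order, 3.18 times higher at 2 weeks (2.42 to 4.24). Rrm2, the cell cycle-regulated subunit of ribonucleotide reductase, was at 11.4, 1.12 and 3.96 CPM, a ratio of 3.53 (2.30 to 5.71). Rrm1, the constitutive subunit, was at 22.6, 12.3 and 18.8 CPM, a smaller ratio of 1.32 (1.08 to 1.62). Mcm2, Mcm3 and Mcm5 had 3 to 27 UMIs in each 20-week library and were also lower there, with Mcm2 at 4.33, 1.68 and 0.594 CPM. With all barcodes the pooled ratios were smaller, 2.27 for Tyms, 1.93 for Rrm2, 1.77 for Mcm2 and 1.00 for Rrm1, and Rrm1 of replicate 2, at 26.1 CPM, was then above the 2-week value.

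Outside the erythroid-marker barcodes, the regulators of entry into mitosis had few UMIs at 20 weeks. Cdk1 had 816 UMIs (24.9 CPM) at 2 weeks, 1 UMI in replicate 1 and 4 in replicate 2, all outside the erythroid-marker barcodes. Ccnb2 had 459, 0 and 3 UMIs, Ccnb1 204, 0 and 4, and Ccna2 294, 1 and 2. Ube2c (chr2:164769898-164778822, plus strand), which acts at the end of mitosis, had 1032 UMIs (31.5 CPM) at 2 weeks, 0 in replicate 1 and 1 in replicate 2, a ratio of 215 with a counting interval from 38.5 to 8505.6. With all barcodes the ratios were far smaller, 3.33 for Cdk1, 5.12 for Ccnb2, 1.73 for Ccnb1, 4.17 for Ccna2 and 2.88 for Ube2c. With or without those barcodes, no 20-week library reached the 2-week level of these 5 genes.

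Chromosome and spindle genes showed the same pattern, again with the erythroid-marker barcodes left out. Top2a, which untangles sister chromatids, was at 25.6, 1.12 and 0.594 CPM, 35.0 times higher at 2 weeks (14.9 to 108). Mki67 (chr7:135689784-135716361, minus strand) was at 19.4, 0.560 and 0.793 CPM, 26.5 times higher (11.3 to 81.9). Birc5 (chr11:117849251-117855743, plus strand) had 736 UMIs at 2 weeks and none in either replicate at 20 weeks, where it was at least 51.1-fold lower, and its partner kinase Aurkb was at least 12.2-fold lower. The 2 genes with the most UMIs left at 20 weeks were the spindle gene Nusap1, with 437, 1 and 12 UMIs, and the centromeric histone Cenpa, with 742, 1 and 11. For Cenpa the ratio of 2 to 20 weeks was 12.9. With all barcodes kept, Mki67 of replicate 2 was at 19.4 CPM, level with the 2-week library, and the pooled ratio was 1.34 (1.08 to 1.66). The same ratio was then 2.20 for Top2a, 3.32 for Birc5, 5.30 for Aurkb, 2.54 for Cenpa and 1.97 for Nusap1, and below 1 for Plk1, at 0.899 (0.554 to 1.52). The other mitotic genes, Bub1, Bub1b, Cenpe, Cenpf, Aurka, Plk1, Cdc20, Tpx2, Kif11 and Prc1, had 0 to 2 UMIs in replicate 1 and 1 to 7 in replicate 2 outside these barcodes.

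The 3 genes of neither list each had their own pattern. Stmn1, which destabilises microtubules, was at 110.5, 14.6 and 14.1 CPM without the erythroid-marker barcodes, 7.78 times higher at 2 weeks (6.36 to 9.62), and both 20-week libraries lay far below. Hmgb2, a chromatin protein, was at 141, 67.2 and 113 CPM, a ratio of 1.39. With all barcodes its direction turned: replicate 2 was at 168 CPM, above the 2-week value, and the pooled ratio was 0.991 (0.925 to 1.06), while that of Stmn1 was 4.34. Ccnd1, the cyclin that links growth signals to the cell cycle, was at 37.2, 45.4 and 15.1 CPM, with the 2-week library between the 20-week libraries.

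**Figure D2:**
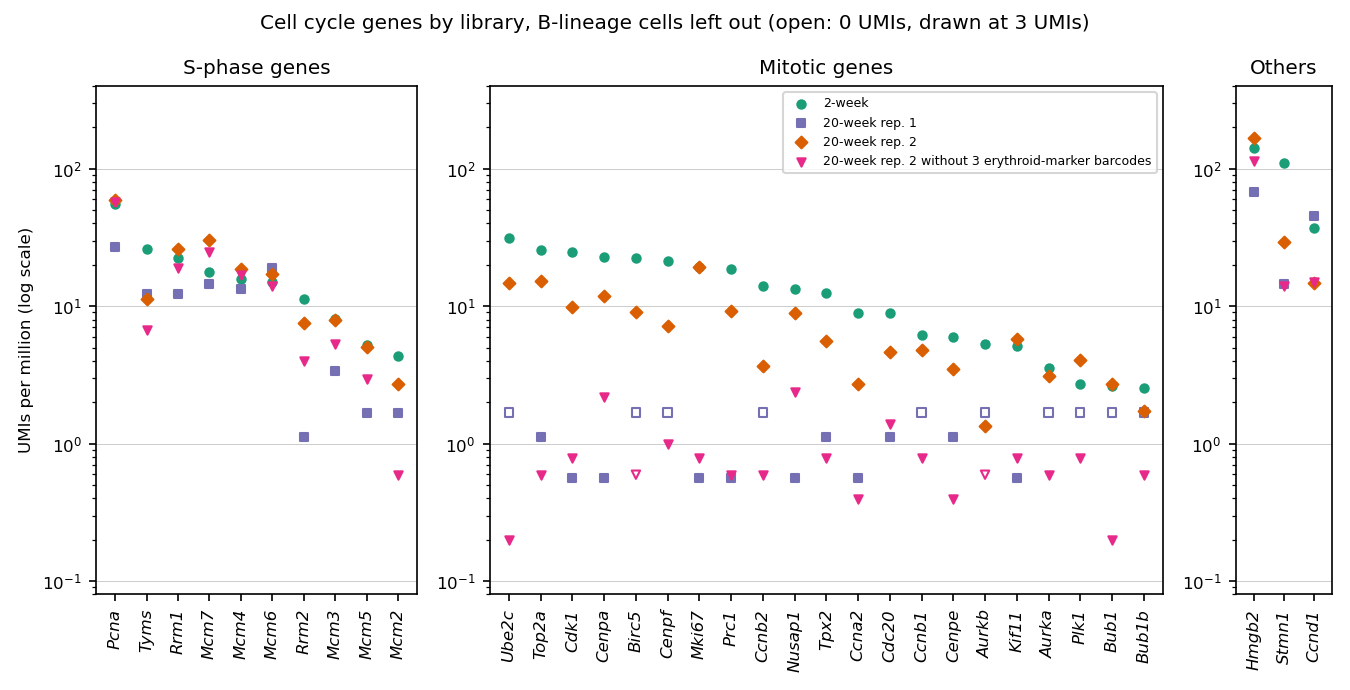
Level of each of the 34 genes in CPM of UMIs on a log axis, for the 2-week library, replicate 1 at 20 weeks, and replicate 2 both with all barcodes and without its 3 erythroid-marker barcodes, all without B-lineage cells; an open point marks a gene with 0 UMIs, drawn at 3 UMIs. Mitotic genes of replicate 2 drop to the low levels of replicate 1 once the 3 barcodes are left out (Top2a from 15.3 to 0.594 CPM), while S-phase genes move by unequal amounts (Pcna from 59.0 to 57.3 CPM, Tyms from 11.2 to 6.74 and Mcm2 from 2.71 to 0.594).

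The age difference was tested across all genes with edgeR's quasi-likelihood test on UMI counts summed per library, and p-values were adjusted by Benjamini-Hochberg. With 1 library against 2 the fit keeps 1 residual degree of freedom, so the spread of the 2-week age is taken to equal that between the 20-week replicates. With all barcodes but the B-lineage cells, 18 of 12961 genes (0.139%) passed an adjusted p of 0.05, 15 of them lower at 20 weeks (0.116%), and 0 of the 34 did. Of the 34, 6 had an unadjusted p under 0.05 (Cenpf, Ccna2, Ccnb2, Cdk1, Tyms and Stmn1), as had 9.41% of all genes tested. DESeq2 called 1 of the 34, Stmn1, and 2.01% of the genes to which it gave an adjusted p. The median log2 change from 2 to 20 weeks was -1.55 over the mitotic genes, -0.40 over the S-phase genes and 0.03 over all genes.

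Without the erythroid-marker barcodes, an alternative chosen after the data had been seen, 150 of 12892 genes (1.16%) passed, 100 of them lower at 20 weeks (0.776%). Then 10 of the 34 passed, all lower at 20 weeks: 9 of the 21 mitotic genes, Stmn1, and 0 of the 10 S-phase genes. All 34 were tested, and 19 of the 21 mitotic genes reached the level the filter on low counts asks for, 1.98 CPM, only in the 2-week library, so their direction was fixed by the filter. The same edgeR test gave Ube2c a log2 change of -7.71 (SE 0.76, adjusted p = 0.00164), Cdk1 -5.11 (SE 0.62, adjusted p = 0.00486) and Top2a -5.07 (SE 0.65, adjusted p = 0.00655). Mki67 fell by 4.75 (SE 0.67, adjusted p = 0.00994) and Stmn1 by 2.91 (SE 0.41, adjusted p = 0.00976). Birc5 passed at an adjusted p of 0.00486 with 0 UMIs at 20 weeks, so its size is given only by the bound above. The other genes that passed were Prc1, which bundles the central spindle (log2 change -4.98, adjusted p = 0.00998), the centromere genes Cenpf (-4.98, adjusted p = 0.0141) and Cenpa (-3.82, adjusted p = 0.0186), and Ccnb2 (-5.07, adjusted p = 0.0281). DESeq2 also called 10 of the 34, and 2.08% of the genes to which it gave an adjusted p.

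The other 12 mitotic genes did not pass, among them Ccna2 (adjusted p = 0.0730), Aurkb (adjusted p = 0.112) and Bub1 (adjusted p = 0.448). Nusap1, with the most UMIs left at 20 weeks, did not pass either (log2 change -2.98, adjusted p = 0.0936). Among S-phase genes the edgeR values were -2.10 for Mcm2 (SE 1.16, adjusted p = 0.601), -2.02 for Rrm2 (SE 0.70, adjusted p = 0.259) and -1.44 for Tyms (SE 0.53, adjusted p = 0.293). The medians in this fit were -4.16 for the mitotic and -0.66 for the S-phase genes. When every cell was first thinned to 1000 UMIs, with the erythroid-marker barcodes kept, 362 genes (3.87%) and 4 of the 34 passed: Ube2c, Mki67, Birc5 and Stmn1. An exact permutation test of 1 library against 2 cannot give a p below 0.3333, so none is reported for single values.

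Other genes of the cycle were read from the same fits. Without the erythroid-marker barcodes, 4 of 28 other mitotic genes passed, all lower at 20 weeks: Cks2, a Cdk1 subunit (log2 change -2.87, adjusted p = 0.0132), Cdca3 (-5.19, adjusted p = 0.0370), and Hmmr and Spc25, both at 0 UMIs at 20 weeks in these cells. Cdca3, Hmmr and Spc25 reached the filter's level of 1.98 CPM only in the 2-week library, so their direction was fixed by the filter. Of 23 other replication genes 0 passed, of 9 G1 cyclins and kinases 0, of 12 CDK inhibitors and pocket proteins 0, and of 13 E2F and DREAM factors 0. With these barcodes kept, 0 genes of each of these lists passed. The difference between these lists was not tested. In that fit Cdkn1a (p21, the CDK inhibitor induced by p53) had 164, 971 and 318 CPM after TMM scaling, higher in both 20-week libraries, with a log2 change of 1.97 (SE 0.87, adjusted p = 0.571).

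Promoters of the members were searched for 3 kinds of motif known from cell cycle genes. RefSeq promoter windows of GRCm38.p6, from 250 bases before to 50 after the annotated start, were matched for 28 of the 34 genes. Those not matched were Aurkb, Ccna2, Ccnd1, Mcm4, Stmn1 and Tpx2. The letters TTTGAA (the CHR element), CCAAT, and the E2F letters TTTCCCGC, TTTGGCGC, TTTGCCGC or TTTCGCGC were searched on both strands. CHR letters were in 13 of 18 mitotic windows (72.2%), 1 of 9 S-phase windows (11.1%) and 18.1% of 27025 windows of all genes. E2F letters were in 1 of 18 mitotic windows (5.56%), 4 of 9 S-phase windows (44.4%) and 2.32% of all. CCAAT was in 16 of 18 mitotic and 8 of 9 S-phase windows (88.9% of each) and in 37.9% of all. The 13 mitotic windows with CHR letters all held CCAAT as well, a pair found in 7.12% of all windows. The mitotic windows without CHR letters were those of Birc5, Bub1, Ccnb1, Cenpe and Nusap1, and Birc5, at 0 UMIs at 20 weeks outside the erythroid-marker barcodes, had none of the 3 kinds of match.

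The 250 bases before the start are printed 5′ to 3′ on the gene's strand, in capitals where a motif matches on either strand; matches that overlap, such as E2F letters on both strands or CCAAT beside its reverse, run together. The first 3 are mitotic genes that passed the test once the erythroid-marker barcodes were left out, with CHR letters near the start, and the last 2 are S-phase helicase genes with E2F letters and no CHR letters.
Ube2c, chr2:164769679-164769928, plus strand: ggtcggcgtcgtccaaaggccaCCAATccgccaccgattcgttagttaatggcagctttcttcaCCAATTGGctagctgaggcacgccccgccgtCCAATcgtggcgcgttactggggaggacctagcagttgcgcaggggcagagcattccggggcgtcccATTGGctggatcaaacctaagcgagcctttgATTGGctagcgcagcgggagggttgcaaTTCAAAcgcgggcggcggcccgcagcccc
Cdk1, chr10:69352913-69353162, minus strand: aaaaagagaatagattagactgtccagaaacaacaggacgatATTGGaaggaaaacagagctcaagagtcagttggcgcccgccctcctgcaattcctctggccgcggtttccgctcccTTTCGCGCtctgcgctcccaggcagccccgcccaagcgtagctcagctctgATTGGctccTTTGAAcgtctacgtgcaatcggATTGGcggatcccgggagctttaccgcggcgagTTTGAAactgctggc
Top2a, chr11:99024190-99024439, minus strand: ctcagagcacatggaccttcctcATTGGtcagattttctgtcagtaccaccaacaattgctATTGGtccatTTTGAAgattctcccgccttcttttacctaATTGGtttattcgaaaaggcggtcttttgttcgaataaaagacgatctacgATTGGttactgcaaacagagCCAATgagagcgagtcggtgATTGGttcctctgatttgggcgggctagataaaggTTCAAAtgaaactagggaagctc
Mcm6, chr1:128359706-128359955, minus strand: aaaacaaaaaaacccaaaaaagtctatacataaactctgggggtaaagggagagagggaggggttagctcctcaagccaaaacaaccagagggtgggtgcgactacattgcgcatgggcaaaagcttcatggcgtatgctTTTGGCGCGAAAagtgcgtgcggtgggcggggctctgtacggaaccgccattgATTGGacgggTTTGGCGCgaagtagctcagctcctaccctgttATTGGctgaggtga
Mcm5, chr8:75109259-75109508, plus strand: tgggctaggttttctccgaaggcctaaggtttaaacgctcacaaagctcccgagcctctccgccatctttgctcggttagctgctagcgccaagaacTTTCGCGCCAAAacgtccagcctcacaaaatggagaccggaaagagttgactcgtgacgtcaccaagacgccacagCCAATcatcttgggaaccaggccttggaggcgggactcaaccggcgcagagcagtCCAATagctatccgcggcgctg
Counted back from the start, the CHR letters nearest to it began at -29 in Ube2c, -15 in Cdk1 and -23 in Top2a. The E2F letters of Mcm6 began at -110, -106 and -47 and those of Mcm5 at -153 and -149. A match describes the letters of this window only.

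Shares of cells were set beside the sums, since a summed level does not say how many cells hold it. Each cell was thinned to 1000 UMIs, and a cell with at least 2 UMIs over a list was called positive for that list. Mitotic-positive cells were 108 of 4767 (2.27%, exact 95% interval 1.86 to 2.73) at 2 weeks. They were 0 of 606 in replicate 1, which allows a share of up to 0.495%, and 4 of 941 (0.425%, 0.116 to 1.09) in replicate 2. Of those 4, 3 were the erythroid-marker barcodes of that library, which left 1 of 938 (0.107%, 0.00270 to 0.593). Unthinned, the shares were 6.65%, 0% and 1.28%, or 0.960% without the erythroid-marker barcodes. Muscle fibre-like barcodes, which do not divide, gave 0 of 83, with a median depth of 2400 UMIs and a mitotic sum of 3 UMIs (10.2 CPM, 2.11 to 29.9). The mitotic levels of replicate 1, 8.40 CPM, and of replicate 2 without the erythroid-marker barcodes, 15.9 CPM, lie within that interval. With 3 UMIs behind it, the interval is too wide to show whether the 20-week levels equal those of cells that do not divide.

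S-phase-positive cells were 115 of 4767 (2.41%, 2.00 to 2.89) at 2 weeks, 6 of 606 (0.990%, 0.364 to 2.14) in replicate 1 and 16 of 941 (1.70%, 0.975 to 2.75) in replicate 2, or 14 of 938 (1.49%, 0.818 to 2.49) without the erythroid-marker barcodes. The intervals of the 2-week library and replicate 2 overlapped. These shares come from 1 random draw of UMIs per cell. The share expected over all draws was 2.09% at 2 weeks and 0.574% in replicate 1. Of the 14 S-phase-positive cells left in replicate 2, 0 were also mitotic-positive. With 1 mitotic-positive cell among those 938, an overlap could hardly occur, so the count of 0 says nothing about phase. Whether the S-phase-positive cells were in S phase was not tested. At 2 weeks 30 cells were positive for both lists, 85 for S-phase alone and 78 for mitotic genes alone. S-phase UMIs were also more widely spread at 2 weeks: 24 cells held 50% of the mitotic UMIs and 351 cells held 50% of the S-phase UMIs, with at least 1 UMI in 832 and 2488 cells.

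Among the named classes at 2 weeks, mitotic genes were highest in myogenic-like cells, named from markers of satellite cells and myoblasts (Pax7, Myf5, Myod1 and others). Of 108 such cells 15 were mitotic-positive (13.9%, 7.99 to 21.9) and 12 S-phase-positive (11.1%, 5.88 to 18.6). Their mitotic sum was 1413 CPM (1323 to 1507) and their S-phase sum 549 CPM. Ube2c reached 194 CPM there, Birc5 175, Cdk1 146, Top2a 134 and Mki67 108, and Ccnd1 324 CPM. At 2 weeks no other named class had an interval of its mitotic-positive share that reached 7.99%.

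Progenitor-like cells, marked by Cd55, Cd248, Pi16 and Dpp4, came next, with 28 of 890 mitotic-positive (3.15%, 2.10 to 4.52) and a mitotic sum of 278 CPM (266 to 291). Mural-like cells had 12 of 676 (1.78%, 0.921 to 3.08; 233 CPM) and tenocyte-like cells 12 of 686 (1.75%, 0.907 to 3.04; 202 CPM). The intervals of these 3 shares overlapped, so their order is not settled by counting error. Within tenocyte-like cells the cluster led by Tnmd and Scx was at 634 CPM, with 5 of 214 cells mitotic-positive (2.34%, 0.763 to 5.37), and the cluster led by Angptl7 and Kera at 68.9 CPM, with 6 of 456 (1.32%, 0.484 to 2.84). The intervals of these shares overlapped. Skeletal cells had lower observed shares. Chondrocyte-like cells had 2 of 544 (0.368%, 0.0446 to 1.32) at 134 CPM, above the Angptl7 and Kera cluster. Osteogenic-like cells had 0 of 127, which allows up to 2.36%, with 5 mitotic UMIs (5.90 CPM, 1.92 to 13.8) at a median depth of 7196 UMIs. The chondrocyte-like interval overlapped those of mural-like and tenocyte-like cells. The osteogenic-like limit lay within the intervals of progenitor-like, mural-like and tenocyte-like cells. Adipocyte-like cells had 0 of 104, which allows up to 2.88%. Cells that took no class name, from several clusters, had 39 of 1632 (2.39%). Of these, 14 came from a cluster of 91 cells (15.4%, 8.67 to 24.5) at 3372 CPM, led in part by Ube2c, Prc1, Cdk1, Cks2 and Hmmr. The cell cycle genes were kept out of the clustering. Its leading genes came from fold changes averaged over the 2-week library and replicate 2, where its 22 cells included the 3 erythroid-marker barcodes. The interval of its share overlapped that of myogenic-like cells. Whether the cluster is a cell type or gathers dividing cells of several types was not tested.

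S-phase genes varied less across the same classes. After myogenic-like cells at 549 CPM, they were at 218 CPM in progenitor-like, 197 in adipocyte-like, 171 in chondrocyte-like, 168 in mural-like, 106 in tenocyte-like and 82.6 in osteogenic-like cells. Chondrocyte-like cells thus had an S-phase sum close to that of mural-like cells with a lower mitotic sum. Ccnd1 ran from 324 CPM in myogenic-like and 58.5 in mural-like cells through 28.0 in progenitor-like and 8.45 in tenocyte-like cells to 4.72 in osteogenic-like and 0.998 in chondrocyte-like cells, the last from 3 UMIs. Of the 108 mitotic-positive cells, 25.9% were progenitor-like and 13.9% myogenic-like, against 18.7% and 2.27% of all cells, and 1.85% were chondrocyte-like against 11.4% of all cells.

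**Figure D3:**
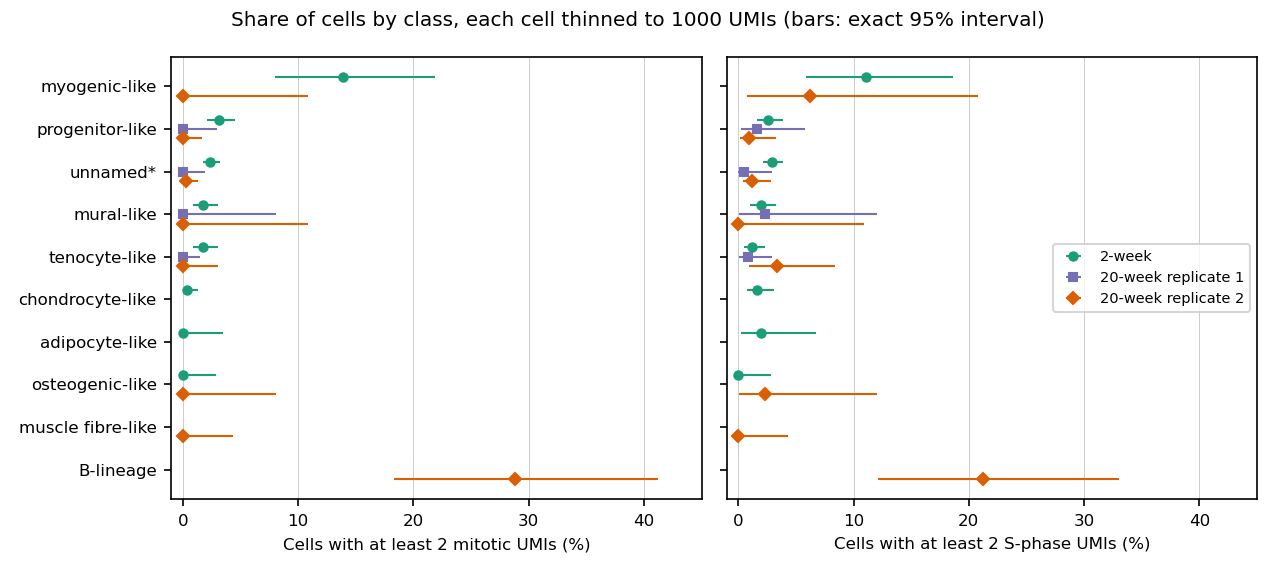
Percent of cells with at least 2 UMIs over the mitotic or the S-phase genes after thinning each cell to 1000 UMIs, by cell class and library, with exact 95% binomial intervals for counting error only; classes with at least 20 cells in a library are shown, and unnamed* leaves out erythroid-marker barcodes. Myogenic-like cells at 2 weeks stand at 13.9% mitotic-positive and 11.1% S-phase-positive, and the B-lineage cells of replicate 2 at 28.8% and 21.2%.

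Markers of the cell types that the sort should have removed were measured in the 2-week cells. In the 108 mitotic-positive cells 5 of 7 erythroid markers were at 0 UMIs, Klf1 and Alas2 among them, and the sum was 5.12 CPM. Of the 10 B-lineage markers 9 were at 0, Cd79a among them. Endothelial markers, 4 of 8 at 0, were at 7.17 CPM in the positive cells and 7.86 CPM in the others. The positive cells had a median of 8315 UMIs and cells positive for neither list 6456.

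**Figure D4:**
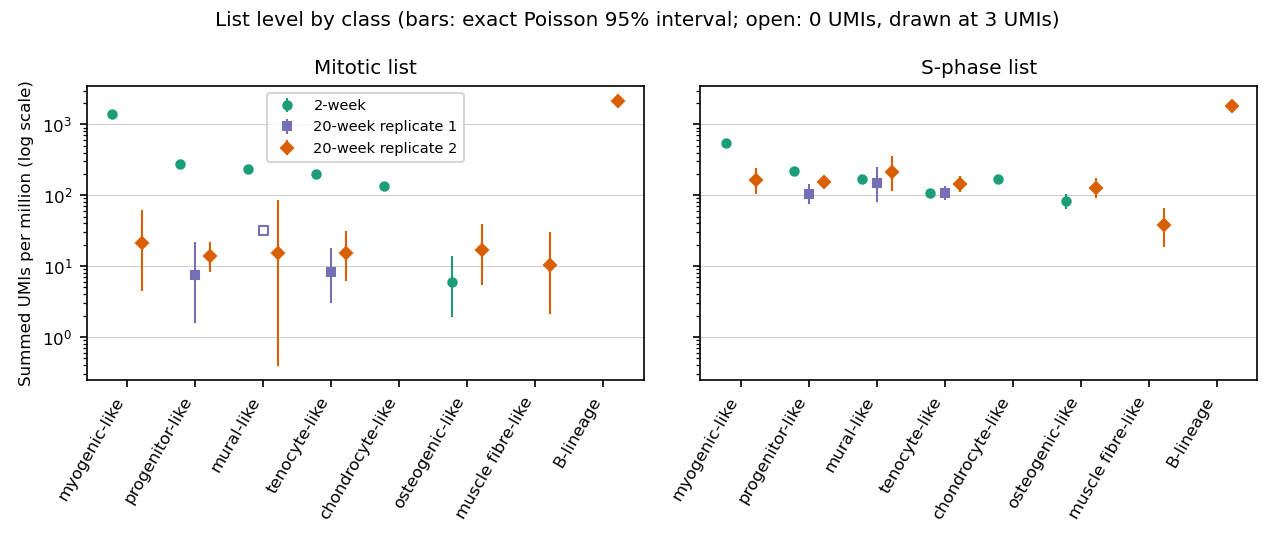
Summed level of the mitotic and of the S-phase genes in CPM on a log axis, by cell class and library, with exact 95% Poisson intervals for counting error only. Mitotic sums at 20 weeks lie between 7.54 and 15.4 CPM in tenocyte-like and progenitor-like cells, against 202 and 278 CPM at 2 weeks, while S-phase sums of these classes lie between 106 and 218 CPM at both ages.

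At 20 weeks no mitotic-positive cell was found in a named class other than the B-lineage cells. In replicates 1 and 2 there were 0 of 244 and 0 of 119 tenocyte-like cells, which allows up to 1.23% and 2.52%, and 0 of 122 and 0 of 218 progenitor-like cells, which allows up to 2.46% and 1.38%. Mural-like cells gave 0 of 44 and 0 of 32, and myogenic-like cells 0 of 7 and 0 of 32, with limits of 6.82% to 42.9% that leave little precision. Tenocyte-like cells had 8.15 and 15.4 CPM of mitotic RNA, from 13 UMIs in all, and progenitor-like cells 7.54 and 13.8 CPM, from 22. The 2-week level was 18.5 times higher in tenocyte-like cells (10.8 to 34.8) and 22.4 times higher in progenitor-like cells (14.8 to 35.9). Most tenocyte-like cells came from a different cluster in each library. Most progenitor-like cells of both ages shared a cluster at the resolution used. At resolution 1.0, however, almost all 2-week and 20-week progenitor-like cells lay in separate clusters. Whether the ratios of these classes, here and below, reflect a change within a cell type was not tested. The 20-week class values hold none of the 3 erythroid-marker barcodes of replicate 2, all of which lay in an unnamed cluster. S-phase RNA was at 109 and 145 CPM in tenocyte-like cells, where the 2-week level was 0.864 times the 20-week level (0.721 to 1.04), and at 106 and 154 CPM in progenitor-like cells, where it was 1.52 times (1.33 to 1.74).

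In tenocyte-like cells 159 of 7894 genes (2.01%) passed the edgeR test for age, and 14 of the 34 had enough counts to be tested: 6 S-phase, 5 mitotic and all 3 others. All 5 mitotic genes reached the level the filter asks for, 13.6 CPM, only in the 2-week library, so that their direction was fixed by the filter. Of the 14, Ube2c and Stmn1 passed, both lower at 20 weeks, as did 0.975% of all genes tested. Ube2c had 169 UMIs at 2 weeks against none in the replicates of the older age, where it was at least 11.1-fold lower (adjusted p = 0.0282). Stmn1 was at 48.9, 5.44 and 13.2 CPM and fell by 2.66 on the log2 scale (SE 0.62, adjusted p = 0.0400). DESeq2 called 0 of the 34 in this class and 1.86% of the genes to which it gave an adjusted p, and edgeR also called 0 with doublets kept or with sums thinned to the smallest library. Birc5, Cdk1 and Cenpf were at 0 UMIs at 20 weeks too and had adjusted p from 0.161 to 0.274.

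Some members were higher at 20 weeks in tenocyte-like cells without passing the test. Ccnd1 was at 8.45, 67.9 and 24.2 CPM, higher in both 20-week libraries, with a log2 change of 2.37 (SE 0.73, adjusted p = 0.144). Mcm6 was at 5.47, 31.2 and 11.0 CPM (log2 change 1.88, SE 0.89, adjusted p = 0.471) and Mcm7 at 8.28, 16.3 and 39.7 CPM (1.49, SE 0.71, adjusted p = 0.475). Tyms was lower, at 25.7, 10.9 and 11.0 CPM (log2 change -1.39, SE 0.68, adjusted p = 0.498). The class is made of different clusters at each age: at 2 weeks 456 of its 686 cells came from the Angptl7 and Kera cluster, in replicate 1 231 of 244 from a cluster led by Spp1 and Chad, and in replicate 2 80 of 119 from the Tnmd and Scx cluster.

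In progenitor-like cells 0 of 9800 genes (0%) passed the edgeR test, while 763 genes had an unadjusted p under 0.05 and DESeq2 called 100 genes (1.17%), 0 of them among the 34. Of the 34, 25 were tested (9 S-phase, 13 mitotic and 3 others), and the 13 mitotic genes reached the filter's level of 7.28 CPM only in the 2-week library, so their direction was fixed by the filter. Mki67 had 175 UMIs at 2 weeks and 0 at 20 weeks, at least 15.7-fold higher at 2 weeks (adjusted p = 0.205), Birc5 was likewise at 0 UMIs at 20 weeks (adjusted p = 0.212) and Prc1 at least 10.9-fold higher (adjusted p = 0.292). Stmn1 was at 121, 27.7 and 7.28 CPM (log2 change -3.12, SE 0.73, adjusted p = 0.354), with both 20-week libraries below the 2-week value. With stricter cell filters 10 members and 3.25% of all genes passed, with doublets kept 15 and 4.66%, with no filter on low counts 9 and 0.750%, and after the sums had been thinned to 1 common total 1 and 2.19%. Keeping doublets also changed the clusters, and the progenitor-like cells of replicates 1 and 2 went from 122 and 218 to 165 and 535. In mural-like cells 4 of 2497 genes (0.160%) passed and 1 member, Hmgb2, could be tested (log2 change -0.26, adjusted p = 1.00).

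Differences between classes were tested within libraries. Between tenocyte-like and progenitor-like cells 989 of 8162 genes (12.1%) passed edgeR's test with library as a block, and of 9 members tested, 0 passed. Of these 9, 2 had an unadjusted p under 0.05, as had 24.7% of all genes, and DESeq2 called 0 of the 34 and 7.96% of the genes to which it gave an adjusted p. Hmgb2 was the member nearest to the threshold, higher by 0.58 in tenocyte-like cells (adjusted p = 0.143). Without the 2-week library 538 genes passed, and still 0 members. Between mural-like and progenitor-like cells 1167 of 7873 genes (14.8%) passed and 0 of 10 members, with 1 at an unadjusted p under 0.05 (24.3% of all genes) and 0 called by DESeq2 (10.3%). Without 20-week replicate 2, whose mural-like sum is the smallest, 2788 genes (26.6%) and 4 members passed: Birc5 (-1.31, adjusted p = 0.0139), Nusap1 (-1.57, adjusted p = 0.0314) and Rrm1 (-1.07, adjusted p = 0.0489) lower and Hmgb2 (0.79, adjusted p = 0.0469) higher in mural-like cells, and without the 2-week library 493 genes and 0 members did. The difference of the age effect between tenocyte-like and progenitor-like cells passed in 15 of 8162 genes (0.184%) and 0 of 9 members, with 2 at an unadjusted p under 0.05 (5.97% of all genes) and 0 called by DESeq2 (0.359%). For Ccnd1 that difference was 1.90 (SE 0.53, adjusted p = 0.315) on the log2 scale, positive meaning a higher 20-week value in tenocyte-like cells. No mitotic gene had enough 20-week counts for the tenocyte and progenitor class tests.

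Which members mark the same cells was measured in the 2-week library. Cells with at least 3 UMIs over the other mitotic genes, 79 to 83 depending on the gene left out, were set against 4502 to 4525 cells with none. Top2a had a UMI in 51.9% of the former and 0.244% of the latter, Birc5 in 51.9% and 0.133%, Ube2c in 48.8% and 0.0888%, and Mki67 in 46.9% and 0.354%. Bub1, a checkpoint kinase, and Kif11, the motor that separates spindle poles, had UMIs in 9.64% and 12.2% of the former and in 0 of 4502 of the latter. Each of the 21 mitotic genes was found in at most 0.508% of the cells without other mitotic UMIs, the highest share being that of Cdk1.

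S-phase genes were detected in both kinds of cell. Pcna had a UMI in 19.3% of the cells rich in mitotic UMIs and in 4.20% of those without, and Mcm6 in 3.61% and 1.29%. Mcm5 was in 3.61% and 0.378%, and Mcm2 in 1.21% and 0.400%. Of the nucleotide genes, Tyms was in 22.9% and 1.56%, Rrm2 in 13.3% and 0.578%, and Rrm1 in 8.43% and 1.56%. Stmn1 was in 81.9% and 2.71%, Hmgb2 in 78.3% and 8.71%, and Ccnd1 in 8.43% and 3.55%.

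**Figure D5:**
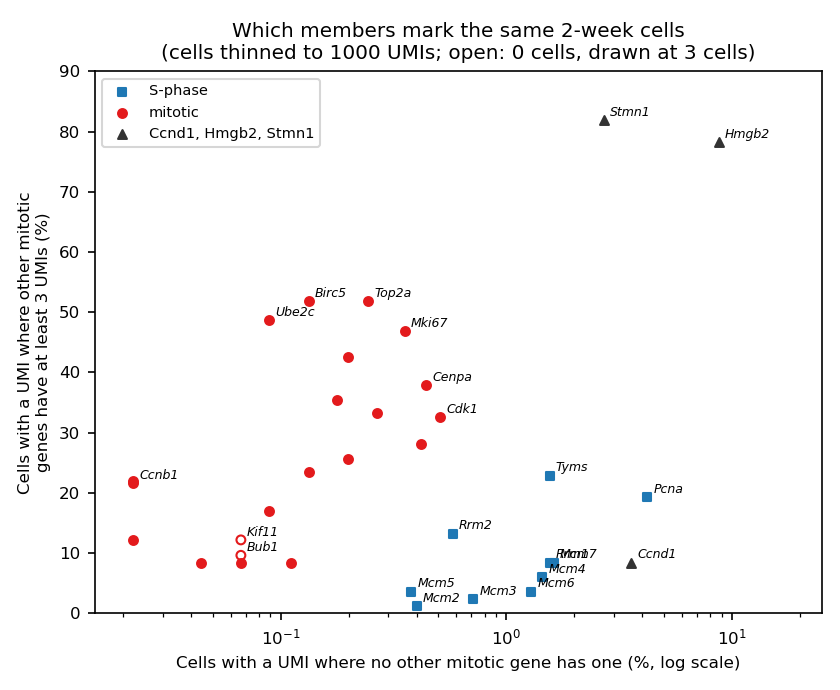
Percent of 2-week cells with a UMI of each gene (each cell thinned to 1000 UMIs) in cells with at least 3 UMIs over the other mitotic genes, against cells with none. Mitotic genes run from 8.43% (Plk1) to 51.9% (Birc5) in the first and lie under 1% in the second (Top2a 51.9% and 0.244%). S-phase genes run from 1.21% (Mcm2) to 22.9% (Tyms) in the first and from 0.378% (Mcm5) to 4.20% (Pcna) in the second. The ranges of the 2 lists thus overlap, and Ccnd1 is at 8.43% and 3.55%.

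B-lineage cells of 20-week replicate 2 had the highest cell cycle levels of any named class. Of the 66 cells, 19 were mitotic-positive (28.8%, 18.3 to 41.3) and 14 S-phase-positive (21.2%, 12.1 to 33.0), with 12 positive for both. Their mitotic sum was 2108 CPM (1965 to 2259) from 805 UMIs, and their S-phase sum 1830 CPM (1697 to 1971). The other cells of the same library, without the erythroid-marker barcodes, were at 15.9 and 151 CPM. Unlike the mitotic UMIs of the rest of that library, these were spread over 39 of the 66 cells, and the first barcode held 9.57%.

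Each phase was represented in the B-lineage cells. Top2a was at 385 CPM, Mki67 at 306, Cenpa at 217 and Birc5 at 196, and among S-phase genes Pcna was at 348, Mcm7 at 277.5, Rrm2 at 257 and Mcm3 at 215. Hmgb2 had 1570 UMIs (4111 CPM) and Stmn1 594 (1555 CPM). Plk1, the polo-like kinase of mitosis, had 3 UMIs (7.86 CPM), and Ccnd1 had 0 UMIs. Taking Cd79a alone as the gate gave 69 cells in replicate 2, 7 at 2 weeks and 1 in replicate 1, with the same 19 and 14 positive cells in replicate 2 and none in the others. With 1 library holding them, no test between ages was possible for these cells.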

How the data were processed

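The deposited tables hold UMI counts per gene and cell barcode, not normalized. Per the submitters' processing notes, the authors used Cell Ranger 6.1.2 and the mm10 build. The annotation release is not given in the sources used here. The labels do not say that the barcodes are all cells of a library. The 3 libraries were not pooled, and no column of another sample was present. Gene positions are from GENCODE annotation of GRCm38, in which 32235 of 32285 Ensembl identifiers were found.

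Barcodes needed 500 genes and 1000 UMIs or more, with no more than 10% of UMIs mitochondrial (4964, 609 and 1015 barcodes passed). The highest doublet scores, at an expected rate of 0.8% per 1000 barcodes, were left out (197, 3 and 8 barcodes, or 3.97%, 0.493% and 0.788%). Cells were clustered with scanpy 1.11.5 and igraph 0.11.9 (2000 variable genes, 30 principal components, 15 neighbours, resolution 0.5) without the cell cycle genes. A cluster took a "-like" name from at least 2 markers among its 10 leading genes by fold and at least 3 detected markers, out of 16 marker lists, so names are rebuilt and not the authors'. B-lineage cells had Cd79a and at least 2 other B-lineage markers.

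Counts were summed per library, or per library and class of at least 20 cells, and tested with edgeR 4.0.16 (TMM, filterByExpr, quasi-likelihood test, Benjamini-Hochberg over all genes tested, threshold 0.05) in R 4.3.3. DESeq2 1.42.0 was an alternative. Gene lists were read out of the fit over all genes. The genes and lists were chosen with earlier results of these data known. The genes named with values in a comparison were those past the threshold and the 3 per list with the largest change and at least 10 UMIs, and from the other lists those past the threshold or the 2 with the largest change. Of the genes named beyond that rule, the values were seen first. The erythroid-marker rule, the per-cell thinning before summing and the fits without those barcodes were added after seeing the data. Of the erythroid markers, 1 is not reported here. The edgeR script was tested on simulated counts with known changes. Promoter sequences are RefSeq's, GRCm38.p6. The end of 24 of 28 windows was found in a GENCODE transcript of the gene, read in the gene's direction. Depth per cell limits detection: intervals and limits for a count of 0 (3 counts) cover counting error only.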

Additional observations from a re-analysis of the deposited data

How the results depend on the processing

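The count of genes past an edgeR adjusted p of 0.05 for age depended on the settings. In all cells without B-lineage cells (18 genes and 0 of the 34), the counts of genes were 238 with DESeq2, 692 with no filter on low counts, 175 after thinning the sums to the total of the smallest library, 0 with stricter cell filters, 49 with doublets kept, 11 with B-lineage cells kept, 362 with each cell thinned, 150 with the erythroid-marker barcodes left out and 262 with the same in DESeq2. Of the 34, DESeq2 called 1 (2.01% of all genes given an adjusted p) and the fit with each cell thinned 4 (3.87% of all genes). Without the erythroid-marker barcodes edgeR called 10 (1.16%) and DESeq2 10 (2.08%). The fit with no filter called 9 and that with thinned sums 1. The shares of all genes in these last 2 fits are not given here, so their counts are not read as a result about the 34. In tenocyte-like cells (159 genes, 2 of the 34) there were 391 with no filter, 311 with stricter filters, 17 with doublets kept and 247 at clustering resolution 1.0. Of the 34, 0 were called with DESeq2 (1.86% of all genes), thinned sums or doublets kept. With no filter 8 were called, where the share of all genes is not given here either. In progenitor-like cells (0 genes) there were 100 with DESeq2, 124 with no filter, 137 with thinned sums, 312 with stricter filters and 536 with doublets kept. The last 4 called 9, 1, 10 and 15 of the 34, against 0.750%, 2.19%, 3.25% and 4.66% of all genes. Keeping doublets also changed the clusters, so that progenitor-like cells of replicates 1 and 2 went from 122 and 218 to 165 and 535. In mural-like cells (4 genes) there were 1 with DESeq2, 9 with no filter, 0 with thinned sums and 2 with doublets kept. Stricter filters left under 20 mural-like cells in each 20-week library, so that fit was not run. For tenocyte-like over progenitor-like cells (989 genes) there were 2233 with no filter, and 538 to 1437 with 1 library left out, the lowest without the 2-week library. For mural-like over progenitor-like cells (1167 genes) there were 2382 with no filter, and 493 to 2788 with 1 library left out, with 0 to 4 of the 34. The 4 were called without 20-week replicate 2, as were 26.6% of all genes. The interaction (15 genes) gave 26 with DESeq2 and 181 with no filter. The cause of these differences was not tested.

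Directions turned for genes with small changes. With B-lineage cells kept the log2 change in all cells became 0.16 for Rrm2, 0.062 for Mcm2 and 0.74 for Hmgb2. Leaving out 20-week replicate 1 or 2 gave 0.25 or -1.07 for Hmgb2 and -1.33 or 0.29 for Ccnd1, the last being 0.28 when erythroid-marker barcodes were left out as well. In tenocyte-like cells Hmgb2 was 0.55 without replicate 1, -0.38 without replicate 2 and 0.22 with thinned sums. In progenitor-like cells Ccnd1 was -0.40 without replicate 1, 0.76 without replicate 2 and -0.39 with doublets kept. Between classes, tenocyte-like over progenitor-like Ccnd1 was 0.55 without the 2-week library and -0.82 without replicate 1. Mural-like over progenitor-like Mcm7 was -0.15 without replicate 2 and 0.38 without replicate 1, Stmn1 -0.53 and 0.12 in the same order, and Ccnd1 -0.52 with DESeq2. Over the results for single genes, 33 values passed the threshold only under the alternative, 5 no longer passed and 14 reversed. The 422 values that stayed the same take in list-level values, such as medians, as well as single genes. The 43 that moved were list-level values only.

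Shares of positive cells scale with depth and with the UMIs required. With at least 3 UMIs, 2000 UMIs per cell and no thinning, the mitotic share at 2 weeks was 1.74%, 3.41% and 6.65%, and the S-phase share 0.629%, 5.33% and 22.3%. The S-phase share was 0%, 2.59% and 4.13% in replicate 1 and 0.213%, 5.71% and 19.6% in replicate 2. The mitotic share of replicate 2, 0.425% with all barcodes, was 0.107% without the erythroid-marker barcodes, and without thinning these shares were 1.28% and 0.960%. No paired analysis was possible because the 2-week age has 1 library and shares fewer than 2 replicate numbers with the 20-week age.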
